A study of Mus musculus with 4 samples.

Results

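The genes that encode the core histones H2A, H2B, H3 and H4, the linker histone H1 and their variants were followed in RNA sequencing libraries of mouse pachytene spermatocytes. In these male germ cells homologous chromosomes are fully paired. The set was taken by gene symbol: protein-coding genes of the Hist1 to Hist4 clusters and of the H1f, H2af, H2bf and H3f families, without H1fnt and H2afx, that reached an expected count of 10 in at least 2 libraries. Of 55364 genes in the deposited table, 81 had such a symbol and 30 met the count. The 30 comprised 17 replication-coupled genes, 4 genes known for testis expression and 9 replacement variants. They lay on chromosomes 13 (12 genes), 3 (8), 11 (3), 6 (2), X (2), 1, 10 and 15 (1 each). Genotypes were wild type (WT, 2 libraries) and a homozygous Ddx4 knock-in (KK, 2 libraries). Ddx4 encodes the germline RNA helicase also known as mouse vasa homolog, and the title of the series speaks of phase-separated germ granules in RNA homeostasis. Cells of both genotypes came from testis by the same stepwise enzyme digestion and by elutriation, which separates cells by size. The labels do not describe the knock-in allele beyond its name, nor strain or age, and do not tell whether replicate libraries are from different mice. The p-values below therefore measure the spread between these libraries, which may be technical.

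Most replication-coupled histone genes have no introns and are made in large amounts while DNA is copied. Their mRNAs end not in a poly(A) tail but just after a conserved stem-loop that the stem-loop binding protein SLBP holds, and a U7 small nuclear RNP directs the cut. Replacement variants, such as H3.3 and H2A.Z, are made outside S phase from mRNAs with poly(A) tails and are placed into chromatin by dedicated chaperones. Pachytene spermatocytes have finished copying their DNA, and testis variants such as H1t and TH2B enter their chromatin before protamines replace histones in spermatids. The labels do not say whether poly(A) RNA was selected for these libraries. RNAs that carry no poly(A) tail had hardly any counts, an observation made after the values had been seen: Rmrp was at 0 in all 4 libraries, Rpph1 had 1 count in WT 2 and Rn7sk had 2 counts in KK 2. The levels below may therefore miss histone mRNAs without a tail, which was not tested.

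The end of the transcript is where these genes differ from each other, so the stem-loop sites of 6 of them are printed here, as DNA, 5′ to 3′, from the GENCODE M21 transcripts of GRCm38. Capitals mark the stem-loop of 16 bases, with 5 bases on either side.
Hist2h2aa2-201: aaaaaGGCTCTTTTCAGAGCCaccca
Hist1h2bp-201: acaaaGGCTCTTTTCAGAGCCaccca
Hist2h2ac-201: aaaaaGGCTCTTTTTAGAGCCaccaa
Hist3h2a-201: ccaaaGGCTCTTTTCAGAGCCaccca
Hist1h4a-201: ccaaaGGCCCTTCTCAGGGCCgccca
Hist1h1t-201: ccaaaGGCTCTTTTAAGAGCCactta
The ends of 2 histone transcripts without a stem-loop are printed for comparison, with capitals on the poly(A) signal AATAAA.
Hist1h2bp-202: taaaAATAAAggtttcaatctatccca
Hist2h2be-201: tattAATAAAgttaccgattagtttc
The site of Hist2h2aa1 had the same letters as that of Hist2h2aa2. A match to the histone stem-loop was found in 131 of 141767 annotated transcripts (0.0924%). It was found in 16 of the 21 replication-coupled or testis genes and in 0 of the 9 replacement variants. In 7 genes (Hist2h2aa2, Hist2h2aa1, Hist1h2bp, Hist1h4h, Hist1h3a, Hist2h2ac and Hist1h2ag) the annotated transcript ended 23 to 57 bases after the stem-loop. In the other 9 it ran on for 108 to 1643 bases, the longest being Hist3h2a. A match describes the annotated letters and does not show where the sequenced RNA ended.

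Together the 30 genes held 0.574% and 0.589% of all TPM (transcript abundance scaled for length and library size) in WT 1 and WT 2, and 0.601% and 0.597% in KK 1 and KK 2. The 5 most abundant genes, Hist2h2aa2, H2afz, H3f3a, H3f3b and H1fx, held 88.5% of the histone TPM. Of the 30 genes, 8 were above 100 TPM on average over the libraries and 15 were below 10 TPM. TPM divides by length and so allows genes to be compared, while counts show how much was read. The 51 genes with such a symbol that missed the count were nearly silent: 21 had 0 counts in every library, and all 51 together had 42.65, 23.04, 64.05 and 40.0 counts in WT 1, WT 2, KK 1 and KK 2. Just inside the rule were Hist1h2ba (10, 9, 11 and 9 counts, in the same order), H2bfm (10, 13, 9 and 7), Hist2h2ab (4, 9.61, 11.9 and 14) and H2afb3 (3, 6, 18 and 17). H2afb3, Hist2h2ab and Hist1h2ag met the rule only through their KK libraries and H2bfm only through its WT libraries, so the rule itself favoured a difference in these 4 genes. Just outside were Hist1h2aa (8, 4, 5 and 8 counts), Hist4h4 (6, 2, 14 and 3), H2afb1 (0, 0, 9 and 2) and Hist1h3f (4, 3, 3 and 8).

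**Figure D1:**
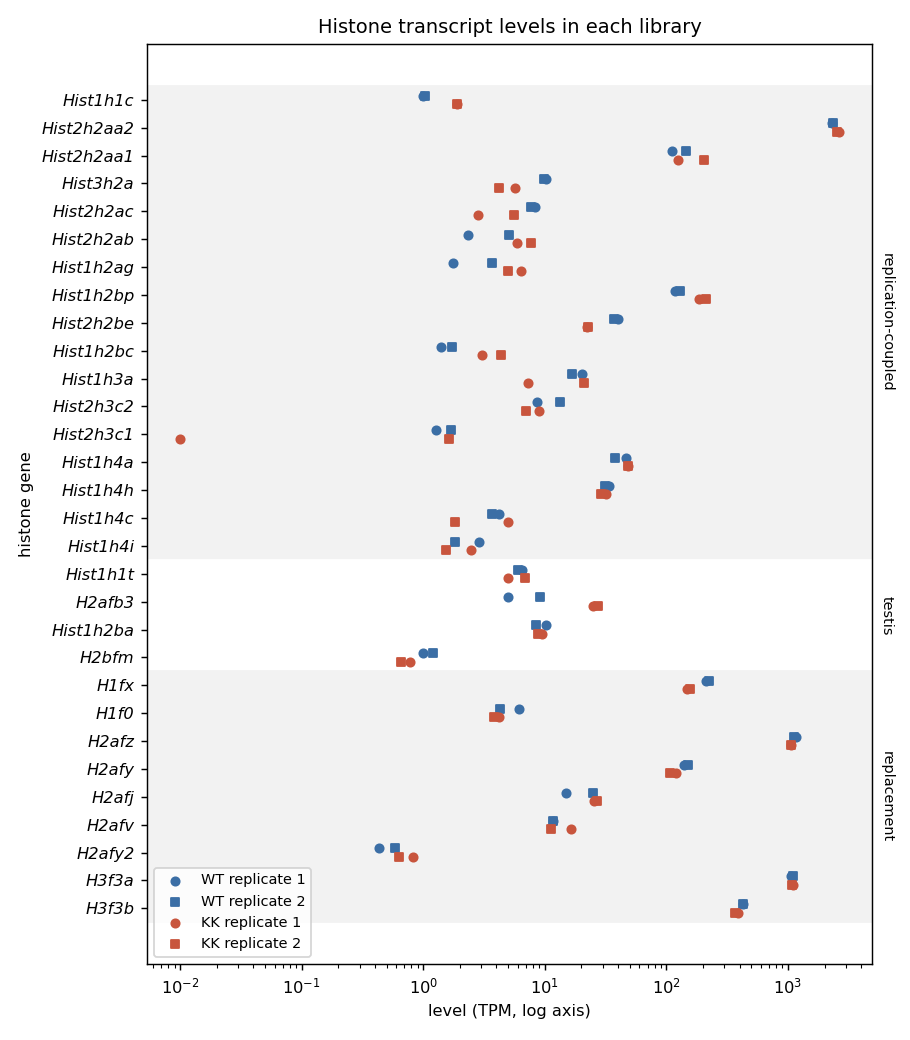
Level of each of the 30 histone genes in each library, in TPM on a log axis, grouped by class, with circles for replicate 1 and squares for replicate 2 of WT (blue) and KK (red). Hist2h2aa2, H2afz and H3f3a were above 1000 TPM in all 4 libraries, whereas 15 genes averaged below 10 TPM.

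The libraries held 17970207 to 19438570 expected counts, and log2 CPM (counts scaled for library size and TMM factor, not for length) correlated across genes at 0.989 and 0.990 within genotypes and 0.973 to 0.974 between them. Ddx4 itself was at 265 and 273 TPM in WT and 54.4 and 52.5 TPM in KK, below both WT libraries in each KK library. The 15 pachytene markers summed to 14465 to 14489 CPM in WT and 13214 to 13412 CPM in KK, with 1 higher and 9 lower by the edgeR test on genotype. By that test 22.0% of all 16571 genes were higher and 21.7% lower, which the marker counts here stand beside. Leydig cell markers moved with genotype: 8 of 9 tested were higher in KK, and their sum was 226 to 239 CPM in WT and 701 to 711 CPM in KK, with Cyp11b1 at 0 in KK. Of 10 markers of preleptotene to zygotene spermatocytes, 5 were higher and 2 lower, with sums of 640 to 659 and 1482 to 1500 CPM, of which Tex101 made 181 and 1083 CPM on average. Spermatogonial markers (9 of 16 higher, 1 lower) summed to 131 to 135 and 136 to 150.0 CPM. Sertoli markers (2 of 12 higher, 5 lower) summed to 195 to 197 and 224 to 227 CPM. Spermatid markers (10 of 18 higher, 7 lower) summed to 6762 to 6834 and 5940 to 5997 CPM. Peritubular (2 of 7 higher, 0 lower), macrophage (3 of 6 higher, 0 lower) and erythroid markers (0 of 2) summed to at most 9.61, 8.05 and 3.39 CPM, and the erythroid marker Slc4a1 was at 0 in every library. The part of these cells in the histone differences was not tested. In such bulk samples fewer cells of a type and less RNA per cell cannot be told apart.

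The comparison of KK with WT asked how the transcripts of the knock-in differed. Of the 30 histone genes, 11 passed edgeR's quasi-likelihood test at an adjusted p of 0.05 (36.7%), beside 43.7% of all 16571 genes tested. Higher in KK were 5 genes (Hist2h2aa2, Hist1h2bp, Hist2h2aa1, Hist1h2bc and H2afb3), which is 16.7% beside 22.0% of all genes. Lower in KK were 6 genes (H2afz, H3f3b, H1fx, H2afy, Hist2h2be and Hist3h2a), which is 20.0% beside 21.7%. The 5 include H2afb3, which entered through KK alone, and both Hist2h2aa copies, neither of which can be read on its own. Of the 26 genes that did not enter through 1 genotype alone, 4 were higher and 6 lower. The share of histone genes that changed was therefore near that of the transcriptome. Genotypes did not overlap in CPM for 19 of the 30, beside 70.8% of all genes tested. The median log2 fold change was -0.07 over the 30 genes and 0.0033 over all genes tested. Only 3 of the 11 changed by at least 2-fold: H2afb3, Hist1h2bc and Hist3h2a. No replacement variant was among the 5 called higher, and 4 of the 6 that fell were classed as replacement variants. Hist2h2be, which fell, and Hist1h2bc, which rose, are classed as replication-coupled but have no stem-loop match in their annotated transcripts. H2afb3, which rose, has none either. The classes were not tested against each other.

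**Figure D2:**
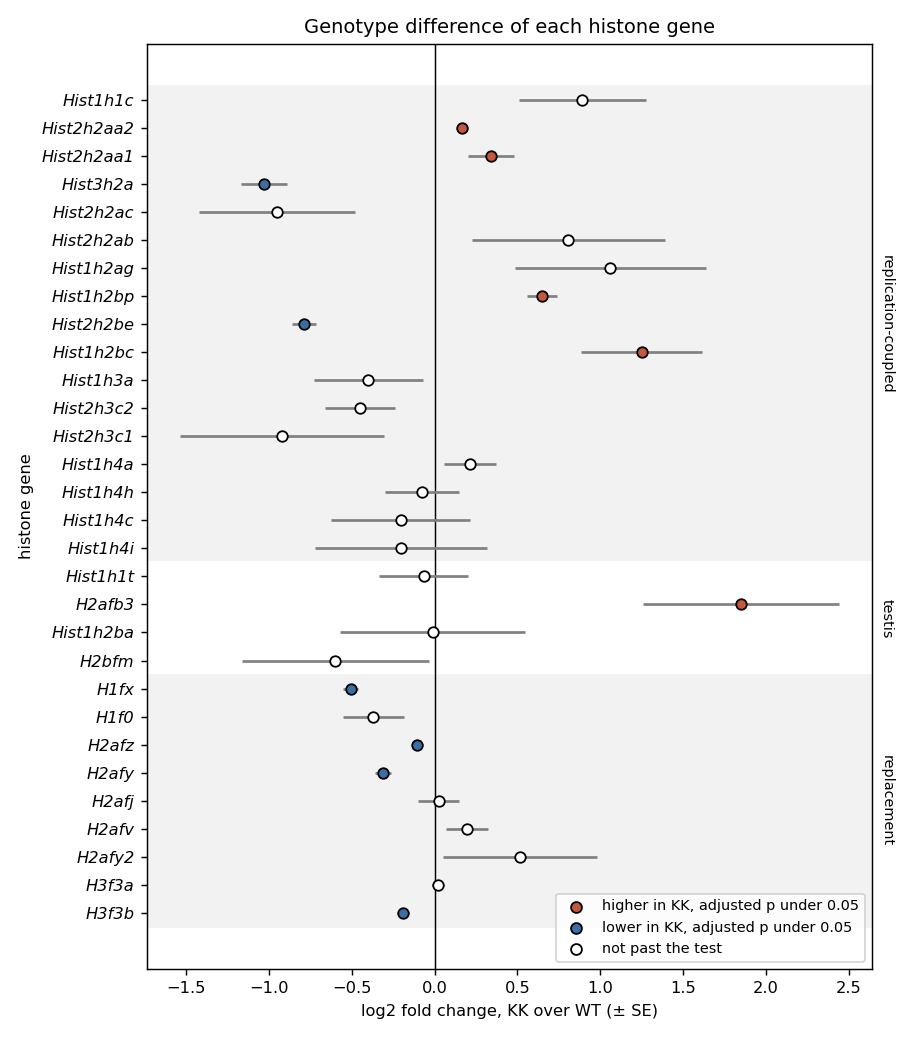
Log2 fold change of KK over WT for each of the 30 histone genes with its standard error (bars), grouped by class. Red points (5 genes) rose and blue points (6 genes) fell at an edgeR adjusted p under 0.05, and white points did not pass.

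Among the linker histone genes of the set, H1fx, which encodes the replacement linker H1.10, was the abundant one and fell in KK. Hils1 and H1fnt, spermatid linker genes outside the set, averaged 462 and 231 TPM over the libraries, beside 184 TPM for H1fx. Both of these genes rose in KK, as given below. The level of H1fx was 210 and 223 TPM in WT 1 and WT 2 and 148 and 156 TPM in KK 1 and KK 2. Both KK libraries were below both WT libraries, and the change was -0.51 ± 0.05 (log2 fold change ± SE, n = 2 per genotype, edgeR adjusted p = 3.5e-10), or 1.42-fold lower. The antisense gene Gm5577 covers 755 bases of H1fx, and its own counts of 187, 222, 153 and 120 were small beside the 2604, 2942, 2107 and 2024 of H1fx. The library kit does not mark strand, so reads where the 2 genes overlap cannot be told apart. H1f0, which encodes H1.0, a linker of differentiated cells, had 146, 109, 115 and 95 counts in WT 1, WT 2, KK 1 and KK 2, with the WT libraries above the KK libraries once scaled. Its antisense gene Gm49544 overlaps 163 bases of it. H1f0 did not pass the test (-0.37 ± 0.18, edgeR adjusted p = 0.107), and passed when WT replicate 2 was left out (adjusted p = 0.0098). Hist1h1c, the replication-coupled H1.2 gene, had 17 and 19 counts in WT and 37 and 34 in KK. The genotypes did not overlap, yet the difference of 0.89 ± 0.39 missed the threshold (edgeR adjusted p = 0.0615), which it passed with limma on log2(TPM + 1) and with only genes of a mean CPM of at least 1. The testis linker gene Hist1h1t was low and overlapped between genotypes, with 53 and 52 counts in WT and 47 and 59 in KK (-0.07 ± 0.27, edgeR adjusted p = 0.867).

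Hist2h2aa2, a replication-coupled H2A gene, had the highest level of all 30. It stood at 2288 and 2362 TPM in WT 1 and WT 2 and at 2645 and 2546 TPM in KK 1 and KK 2. Both KK libraries were above both WT libraries, and the rise was small, 0.17 ± 0.04 on the log2 scale (1.12-fold, edgeR adjusted p = 7.4e-04). Its copy Hist2h2aa1 was at 112 and 145 TPM in WT and 125 and 202 TPM in KK, so the genotypes overlapped and KK 2 alone was high. Hist2h2aa1 passed narrowly (0.34 ± 0.14, edgeR adjusted p = 0.0480) and lost the call in the same direction under 6 of 14 alternatives. Not counted in those 6, it turned to -0.041 and also lost the call without KK replicate 2.

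Neither of these 2 genes can be read on its own. Of the stretches of 50 bases in their transcripts, 0% were unique to either gene, counting both strands. Gm20632 shared 100% of those of Hist2h2aa2, and Gm20633 shared 100% of those of Hist2h2aa1, each from the opposite strand. The share between the 2 copies is not given here, and the split of reads among these genes is an estimate. An analysis added after the data had been seen summed both copies with Gm20632 and Gm20633. The sum was 7265, 8232, 9619 and 8716 counts in WT 1, WT 2, KK 1 and KK 2. The summed difference was 0.16 ± 0.04 (edgeR adjusted p = 8.0e-04), close to that of Hist2h2aa2. Gm20634, which overlaps 529 bases of Hist2h2aa1 on the same strand, was left out of this sum and counted with the Hist2h3c copies below. The copies together were higher in KK, and for Hist2h2aa1 by itself no direction is given.

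Hist3h2a, the H2A gene of the small cluster on chromosome 11, was the histone gene with the largest fall that passed. It had 259 and 266 counts in WT 1 and WT 2 and 163 and 110 in KK 1 and KK 2, or 10.3, 9.92, 5.65 and 4.19 TPM. Both KK libraries were below both WT libraries (-1.03 ± 0.14, 2.04-fold lower, edgeR adjusted p = 5.8e-07). Hist3h2a lies on the same strand within Trim17, and 31.5% of its stretches of 50 bases are shared with that gene, whose counts were 1535, 1558, 1885 and 1696. How reads were divided between them was not tested. Hist2h2ac, Hist1h2ag and Hist2h2ab were below 10 TPM in every library and did not pass. Hist2h2ac had 23, 23.01, 9 and 16 counts, Hist1h2ag had 4, 9, 17.06 and 12, and Hist2h2ab had 4, 9.61, 11.9 and 14. Their log2 differences were -0.95, 1.06 and 0.81, with edgeR adjusted p of 0.103, 0.141 and 0.277.

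All 3 H2B genes classed here as replication-coupled passed the test, and not in the same direction. The annotated transcript of Hist2h2be has no stem-loop match and carries AATAAA 16 bases from its end. That of Hist1h2bc has no stem-loop match and no AATAAA in its last 60 bases. Neither is the replication-coupled form described above. Hist1h2bp had 474 and 562 counts in WT 1 and WT 2 and 846 and 872 in KK 1 and KK 2, or 118, 129, 186 and 210 TPM. It rose by 0.65 ± 0.09 (1.57-fold, edgeR adjusted p = 8.0e-07), with both KK libraries above both WT libraries. Hist2h2be had 1277 and 1255 counts in WT and 802 and 752 in KK, or 40.2, 37.2, 22.1 and 22.7 TPM. It fell by 0.79 on the log2 scale (SE 0.07, 1.73-fold lower, edgeR adjusted p = 4.8e-10), again with no overlap. Of the stretches of 50 bases, 100% were unique in Hist2h2be, 55.9% in Hist1h2bp and 69.4% in Hist1h2bc. How reads of the shared stretches were divided was not tested. Hist1h2bc was low, with 16 and 21 counts in WT and 40 and 53 in KK. The KK libraries were above the WT libraries by 1.25 ± 0.36 (edgeR adjusted p = 0.00616), and the ratio of scaled counts was 2.37 with an exact 95% interval of 1.60 to 3.57, which covers counting error only. Hist1h2bc missed the threshold without KK replicate 2 (0.96, adjusted p = 0.097). Because the transcripts differ in length, the H2B total depends on the scale: summed TPM was 1.37 times as high in KK, while summed CPM, which Hist2h2be leads, was 0.882 times.

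Hist1h2bp has 2 annotated mRNAs whose ends differ, as the sequences above show. The transcript Hist1h2bp-201 ends 38 bases after the stem-loop, and the spliced Hist1h2bp-202 skips the stem-loop and carries AATAAA 17 bases from its end. By the deposited isoform percentages, Hist1h2bp-202 held 93.46% and 95.54% in WT 1 and WT 2 and 89.56% and 91.42% in KK 1 and KK 2. Most Hist1h2bp RNA in all 4 libraries was therefore assigned to the form with the poly(A) signal. The stem-loop form had 15.89 and 12.89 counts in WT and 46.82 and 38.89 in KK, and its share was 4.01 percentage points larger in KK. The genotypes did not overlap in that share, and with 2 libraries against 2 an exact permutation test cannot give a p below 0.333.

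**Figure D3:**
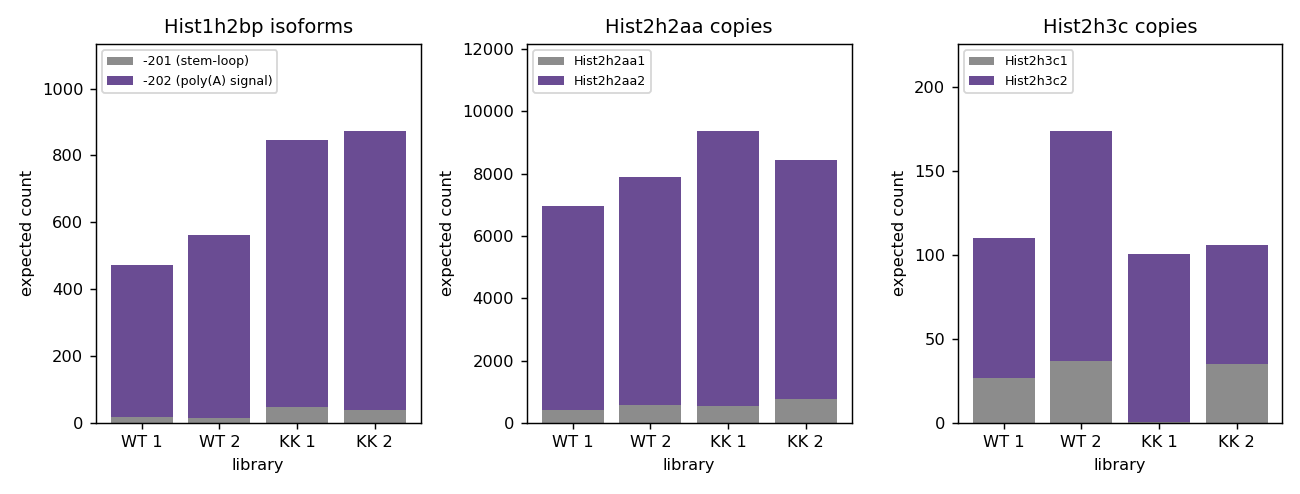
Expected counts in each library (bars, stacked) of the 2 isoforms of Hist1h2bp, the 2 copies of Hist2h2aa and the 2 copies of Hist2h3c. Hist1h2bp-202 held at least 89.56% in every library, Hist2h2aa2 took most of its pair's counts, and Hist2h3c1 had 0.23 counts in KK 1.

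No single replication-coupled H3 gene passed the test. Hist1h3a had 59.78, 53, 25 and 65 counts in WT 1, WT 2, KK 1 and KK 2, with KK 1 alone low (-0.40 ± 0.33, edgeR adjusted p = 0.347). Hist2h3c2 had 83.16, 136.34, 100.02 and 70.48 counts (-0.45 ± 0.21, edgeR adjusted p = 0.0879) and Hist2h3c1 had 26.61, 36.98, 0.23 and 35.07 (-0.92 ± 0.62, edgeR adjusted p = 0.237). The values of these 3 genes rested on single libraries. Without KK replicate 2, Hist1h3a stood at -1.33 and Hist2h3c1 at -8.06, both past the test, and the latter is a fit against a count that rounds to 0, not a size. Hist2h3c2 passed without WT replicate 1 (-0.73) and without KK replicate 1 (-0.67).

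Of the stretches of 50 bases in Hist2h3c1 and Hist2h3c2, 0% and 36.5% were unique. Gm20634, which overlaps Hist2h3c1 on the same strand, shared 100% and 63.5% of them. An analysis added after the data had been seen summed both genes with Gm20634. The sum was 266 and 336 counts in WT 1 and WT 2 and 240 and 207 in KK 1 and KK 2. Scaled, this was 15.1 and 17.98 CPM in WT and 11.9 and 11.3 CPM in KK, so the genotypes did not overlap. The sum was lower in KK by a log2 difference of -0.51 ± 0.11 (edgeR adjusted p = 5.6e-04), a call that neither copy gave by itself. Gm20634 supplied 157, 162, 140 and 101 of those counts and is not itself a histone gene. Because it also overlaps Hist2h2aa1, the sum depends on where its reads are placed, and other placements were not tested.

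The H4 genes encode one and the same protein, and none of the 4 measured ones passed the test. Hist1h4a led with 46.3 and 37.6 TPM in WT and 48.1 and 48.6 TPM in KK (0.22 ± 0.16, edgeR adjusted p = 0.277). Hist1h4h followed at 33.98, 31.27, 31.98 and 29.11 TPM (-0.08 ± 0.22, edgeR adjusted p = 0.815). Hist1h4c had 29, 27.29, 39.42 and 13.09 counts and Hist1h4i had 16, 11, 16 and 9, with log2 differences of -0.20 and -0.20 (edgeR adjusted p = 0.726 and 0.784). Summed over the 4 genes, H4 stood at 87.3 and 74.4 TPM in WT and at 87.5 and 81.0 TPM in KK.

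H2afb3, on the X chromosome, encodes H2A.B, a short H2A of the testis. It had 3 and 6 counts in WT and 18 and 17 in KK, or 5, 9.12, 24.8 and 27.4 TPM, with both KK libraries above both WT libraries. Because H2afb3 met the count rule only through KK, its difference is a description: 1.85 ± 0.59 on the log2 scale, with an edgeR adjusted p of 0.0122 that the choice of genes favoured. The ratio of scaled counts was 3.67 (exact 95% interval 1.73 to 8.68, counting error only). The adjusted p was 0.104 with DESeq2 and 0.052 to 0.173 when any 1 library was left out. It shares 43.8% of its stretches of 50 bases with H2afb1, which had 0 and 0 counts in WT and 9 and 2 in KK. Hist1h2ba, the gene of the testis H2B called TH2B, stayed at 9 to 11 counts in every library (-0.01 ± 0.56, edgeR adjusted p = 0.990). H2bfm, the other testis H2B gene, also on the X chromosome, had 10, 13, 9 and 7 counts (-0.60 ± 0.56, edgeR adjusted p = 0.414). With SEs of 0.56, small differences of Hist1h2ba and H2bfm could not be detected at this depth.

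Beside H1fx, the replacement variants of H3 and H2A above 100 TPM differed by at most 1.24-fold. H3.3 is one protein made from 2 genes, and only one of them passed. H3f3b fell, from 429 and 422 TPM in WT to 391 and 367 TPM in KK, with no overlap (-0.19 ± 0.04, edgeR adjusted p = 7.2e-05). H3f3a held 1050 and 1098 TPM in WT and 1096 and 1085 TPM in KK, which overlap (0.02 ± 0.04, edgeR adjusted p = 0.694). Summed, the H3.3 genes were at 1479 and 1520 TPM in WT and 1487 and 1452 TPM in KK, a ratio of 0.980, and at 0.942 in summed CPM.

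H2afz, the gene of H2A.Z, a variant found at promoters, was the second most abundant histone gene. It was at 1160 and 1123 TPM in WT and 1065 and 1053 TPM in KK. The genotypes did not overlap, the difference of -0.10 ± 0.03 passed (edgeR adjusted p = 0.0169), and it lost the call under 4 of 13 alternatives with adjusted p of up to 0.106. H2afy, which encodes macroH2A.1, a large variant known from the inactive X and the sex body, fell from 138 and 149 TPM in WT to 120 and 108 TPM in KK. That difference was -0.31 ± 0.05 (1.24-fold lower, edgeR adjusted p = 6.4e-06). H2afj, the gene of the minor variant H2A.J, was at 15.04 TPM in WT 1 and at 24.99, 25.32 and 27.06 TPM in WT 2, KK 1 and KK 2, so WT 1 alone was low in TPM. Its counts were 195, 218, 220 and 225, and WT 1 did not stand apart in them once scaled. H2afj, H2afv (a second H2A.Z gene) and H2afy2 did not pass, with log2 differences of 0.03, 0.20 and 0.51 and edgeR adjusted p of 0.888, 0.222 and 0.394. H2afy2, the macroH2A.2 gene, had only 11 to 24 counts, against 1577 to 2036 of H2afy.

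The main isoforms of H2afz, H3f3a and H2afy overlapped between genotypes. H2afz-201 held 97.42% to 98.23% of H2afz in all 4 libraries. H3f3a-207 held 65.22%, 63.30%, 65.00% and 63.05% in WT 1, WT 2, KK 1 and KK 2, and H2afy-201 held 46.95%, 43.19%, 43.36% and 48.12%. H3f3b-201 held 79.86% and 79.77% in WT and 76.76% and 79.26% in KK, which do not overlap. H2afy-206, a minor transcript with a retained intron, held 4.08% and 7.39% in WT and 2.80% and 0.96% in KK, also without overlap. H3f3b-202 (1.88% and 1.72% against 1.47% and 1.16%) and H3f3b-204 (11.90% and 10.80% against 12.24% and 12.13%) did not overlap either. H2afv-201 held 21.56%, 20.57%, 42.51% and 0% of the low gene H2afv, so the KK libraries differed most from each other. H2afj-201 was at 54.33% in WT 1 and at 26.76%, 23.14% and 25.43% in the other libraries, so the WT libraries differed from each other by more than the genotypes.

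By class, the replication-coupled genes together were at 2700 and 2809 TPM in WT 1 and WT 2. They were at 3107 and 3119 TPM in KK 1 and KK 2, a ratio of 1.13 that was 1.06 in summed CPM. Hist2h2aa2 held most of this TPM, at 2288, 2362, 2645 and 2546 in the same order. The replacement variants together were at 3021 and 3057 TPM in WT and 2867 and 2812 TPM in KK, a ratio of 0.934. The testis genes together were at 22.8 and 24.7 TPM in WT and 40.1 and 43.8 TPM in KK, a ratio of 1.77 that came from H2afb3 and was 1.07 in summed CPM. Sums over genes were given no test.

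Set against the ends of the transcripts, 3 of the 7 genes whose transcript ends near the stem-loop were called higher and 0 lower: Hist2h2aa2, Hist2h2aa1 and Hist1h2bp. Neither Hist2h2aa copy can be read on its own, so they may amount to 1 signal. Hist1h2bp was mostly assigned to its form without the stem-loop. Of the 9 genes with a stem-loop farther from the end, 0 rose and 1 fell (Hist3h2a). Of the 14 without a match, 2 rose and 5 fell. Over all genes tested the shares were 22.0% higher and 21.7% lower. These counts were read after the values were known and were given no test.

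Histone genes often lie head to head, with 1 control region between an H2A and an H2B gene, and 5 such neighbours within 1000 bases of each other involved the 30 genes. Hist2h2ac and Hist2h2be on chromosome 3 are 238 bases apart and were the only pair with both genes among the 30. Hist2h2be had 752 to 1277 counts and Hist2h2ac 9 to 23.01, and both were lower in KK on average, though only Hist2h2be passed. The promoter of Hist2h2ac from RefSeq (GRCm38.p6, chr3:96220831-96221130, minus strand), which spans the gap, is printed because it is the region between both genes, with capitals on 3 motifs: the CCAAT box, the TATA box (searched as TATAAA) and the octamer (searched as ATTTGCAT), in either direction.
Hist2h2ac promoter: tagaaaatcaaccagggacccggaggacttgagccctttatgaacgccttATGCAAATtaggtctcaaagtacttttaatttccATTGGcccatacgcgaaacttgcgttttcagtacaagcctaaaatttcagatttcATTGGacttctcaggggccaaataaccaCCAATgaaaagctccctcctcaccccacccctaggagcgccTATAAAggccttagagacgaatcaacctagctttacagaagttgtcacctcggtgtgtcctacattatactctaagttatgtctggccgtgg
Hist1h2bp on chromosome 13 is 242 bases from Hist1h2an, and its promoter (GRCm38.p6, chr13:21787238-21787537, plus strand) is printed for comparison with the same capitals.
Hist1h2bp promoter: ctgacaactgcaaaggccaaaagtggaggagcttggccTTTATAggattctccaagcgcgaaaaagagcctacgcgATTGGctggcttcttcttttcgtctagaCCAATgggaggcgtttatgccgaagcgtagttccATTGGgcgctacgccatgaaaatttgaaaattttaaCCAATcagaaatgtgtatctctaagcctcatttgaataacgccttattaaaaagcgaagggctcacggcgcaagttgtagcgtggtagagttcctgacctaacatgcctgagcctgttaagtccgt
Hist1h2an had 1, 0, 0 and 0 counts in WT 1, WT 2, KK 1 and KK 2, where Hist1h2bp had 474 to 872. Hist1h2ac had 0, 0, 0 and 1 counts, 250 bases from Hist1h2bc with 16 to 53. Hist1h2bj had 2 to 4.03 counts beside Hist1h2ag, and Hist1h2aa had 4 to 8 beside Hist1h2ba. In the Hist1h2bp and Hist1h2bc pairs 1 gene was read and its neighbour was at or near 0. Promoters of 27 of the 30 genes were matched, and both strands were searched. CCAAT was in 22 of 27 promoters beside 37.4% of all 32851 promoters, TATAAA in 8 of 27 beside 13.6%, and ATTTGCAT in 4 of 27 (H3f3b, Hist1h2ba, Hist2h2ac and Hist3h2a) beside 1.74%. A match describes the letters only.

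Genes that act on histone mRNAs and proteins were read from the same test. The list of histone mRNA 3′ end processing also holds general mRNA factors of cleavage, cap binding and deadenylation. Of its 31 tested genes, 3 rose and 15 fell, beside 22.0% and 21.7% of all genes. The median log2 fold change was -0.16 beside 0.0033 over all genes. Histone-specific and general factors were not counted apart. The number of the list that fell was 7 with limma on log2(TPM + 1) or log2(TPM + 0.1). Slbp, which encodes the stem-loop binding protein, was among those that fell, from 172 ± 2.65 CPM (SD, n = 2) in WT to 150 ± 0.64 CPM in KK (log2 -0.20). Npat, which encodes the coactivator of histone gene transcription at histone locus bodies, fell from 39.2 ± 1.76 to 32.8 ± 1.65 CPM (-0.26). The largest rises above 1 CPM were Cstf2 (0.86), of the cleavage stimulation factor, and Zfp473 (0.39), a zinc finger protein of the U7 complex. The largest falls were Cstf2t (-0.50), the autosomal retrogene of Cstf2 that is active in meiosis, and Pan2 (-0.49), a deadenylase subunit. Cstf2, which is X-linked, went from 16.7 ± 0.51 to 30.2 ± 1.78 CPM while Cstf2t went from 78.5 ± 4.41 to 55.4 ± 2.002 CPM.

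Of 44 histone chaperone and variant exchange genes, 6 rose and 26 fell, with a median of -0.21. Nasp, the H1 and H3-H4 chaperone, fell from 1238 ± 62.4 to 952 ± 33.1 CPM (-0.38). The largest falls were Chd1 (-0.77), a remodeller linked to H3.3, and Srcap (-0.74), the motor of the complex that places H2A.Z, from 74.9 ± 1.82 to 44.9 ± 0.54 CPM. The H3.3 chaperone genes Hira (-0.46) and Daxx (-0.31) fell. Both were named after their values were seen, and Ubn1, Ubn2, Cabin1 and Atrx, also on the list, are not given here. The largest rises were Mcm2 (1.22), a helicase subunit that also holds H3-H4, and Rbbp7 (1.04), a histone-binding WD40 protein, from 5.92 ± 1.26 to 12.2 ± 0.03 CPM. The share that fell, 26 of 44, stands beside 21.7% of all genes, and the list was not tested against other lists. With limma on log2(TPM + 1) the count that fell was 11, and the share of all genes that fell under that setting is not given here.

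Of 47 S phase genes, 9 rose and 12 fell, with a median of 0.03, beside 22.0% higher and 21.7% lower of all genes. The 12 became 4 with limma and 6 with DESeq2, and the 9 became 4 with limma on log2(TPM + 0.1). Cdt1 (1.34) and E2f1 (1.24), a licensing factor and a transcription factor of S phase entry, had the largest rises above 1 CPM, and Cdk2 (-0.51) and E2f7 (-0.49) the largest falls. Both rising genes were low, Cdt1 at 1.11 ± 0.36 CPM in WT and 2.80 ± 0.27 in KK. Of 12 tested genes for other germ line histones and sperm nuclear proteins, 6 rose and 3 fell. Hils1, a spermatid linker histone, rose from 153 ± 3.40 to 242 ± 4.86 CPM (0.66), and H2al1n, a testis H2A, rose by 0.65. Prm2, a protamine, fell by 0.53 on the log2 scale, and H2afx, the variant phosphorylated on the sex body, fell from 79.7 ± 2.94 to 66.8 ± 5.29 CPM (-0.25). H1fnt, a spermatid linker, rose by 0.15.

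**Figure D4:**
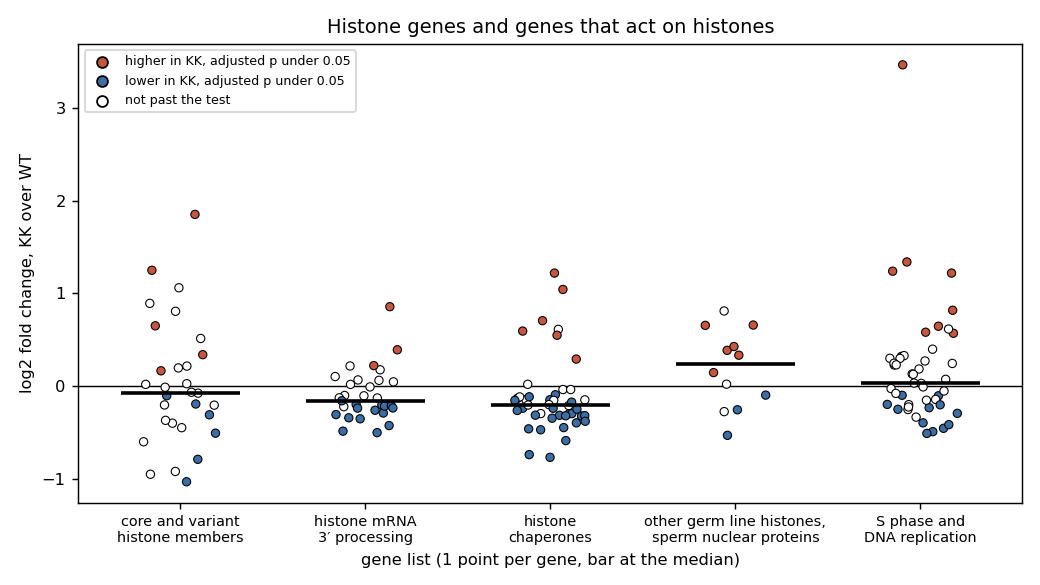
Log2 fold change of KK over WT for each tested gene (1 point) of the histone set and 4 lists of related genes, with a bar at the median. The bars stand at -0.07 for the histone genes, -0.16 for 3′ processing, -0.21 for chaperones, 0.24 for other germ line histones and sperm nuclear proteins, and 0.03 for S phase, and red and blue mark genes past the test.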

How the data were processed

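RNA from 2 WT and 2 KK samples of enriched pachytene spermatocytes was sequenced without strand information. Per the file headers, each gene has an expected count, a TPM value and an effective length from the authors. Each transcript has the same and a percent of its gene's transcripts, also per the file headers. The submitters' processing notes name Bowtie, mm10 and GRCm38; which quantifier and annotation release the authors used is not given in the sources used here. In the GENCODE M21 annotation of GRCm38, 55104 of 55364 gene identifiers were found, and all 56 histone transcripts had the deposited length.

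Expected counts were rounded and fitted with edgeR 4.0.16 (R 4.3.3) on genotype, with TMM factors and filterByExpr, which kept 16571 genes and all 30 histone genes. P-values were adjusted over all of them (Benjamini-Hochberg, 0.05), and the standard error of a log2 fold change is its size over the root of the F statistic. CPM are TMM-scaled. Alternatives used DESeq2 1.42.0, limma 3.58.1 on log2(TPM + 1) or log2(TPM + 0.1), other scalings, filters and an effective length offset, a replicate block, and each library left out, where the lone library of a genotype is assumed to vary like the other genotype's. On simulated counts for 16571 genes, the KK against WT test found 65.2% of genes set to change 1.5-fold. It found 83.2% of those at 2-fold and 97.6% of those at 4-fold, and 6.29% of its calls were false. Only genes with a mean CPM of at least 1 were set to change, and far fewer than the 43.7% called in the data. The rates therefore do not describe histone genes below 1 CPM, such as H2afb3, and need not hold for this comparison.

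Uniqueness is the share of a gene's 50-base stretches that no other annotated gene holds. The stem-loop was searched on transcripts and motifs on RefSeq promoters (GRCm38.p6, 250 bases before to 50 after the start). The members and gene lists were chosen with earlier results of these data known. Values are given for genes past the test without overlap and the 3 highest of each class, and up to 2 risers and 2 fallers of each related list with mean CPM of at least 1; H1fnt, Slbp, Npat, Nasp, Hira and Daxx were named besides, for their role, after their values were seen.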

Additional observations from a re-analysis of the deposited data

How the results depend on the processing

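Of 386 alternative values of single histone genes, 16 lost the call in the same direction and 10 gained it. Apart from those 16, 1 value of a called gene changed sign and also lost the call. Among uncalled genes, 14 values of 9 genes changed sign. H1fx, H2afy, H3f3b, Hist1h2bp, Hist2h2be and Hist3h2a kept direction and call under all 13 alternatives, and Hist2h2aa2 under all 14. The called gene was Hist2h2aa1 without KK replicate 2 (-0.041; the other libraries left out gave up to 0.63). The number of histone genes higher in KK, 5 as reported, was 3 with DESeq2 and 2 to 4 with a library left out. The number lower, 6, was 6 to 8 with a library left out. Depth limits the precision of genes with few counts, such as H2afb3 and Hist1h2bc; other calls, such as H2afz, were also lost under some settings. Of 3′ processing genes, 7 were lower with limma on log2(TPM + 1) and 7 on log2(TPM + 0.1). Of chaperone genes, 11 and 10 were lower with these and 16 with the effective length offset. Of S phase genes, 4 and 4 were lower with these, 7 with the effective length offset and 6 with DESeq2, and 4 were higher on log2(TPM + 0.1). The shares of all genes called under these settings are not given here, so these list counts cannot be set against them. The cause was not tested. In summed CPM the ratios of KK to WT were 1.06 for all replication-coupled, 0.913 for all replacement and 1.07 for all testis genes, 0.942 for replacement H3, 0.807 for testis H2B and 0.882 for replication-coupled H2B, which turned. Over all genes of the pattern the replication-coupled H1 ratio was 1.70. Replicate numbers share only a label: deviations of same-numbered libraries correlated at -0.06, and with a replicate block 5 histone genes were higher and 7 lower, Hist2h3c1 being added (-1.28, edgeR adjusted p = 0.0169).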
